A study of Homo sapiens with 27 samples.

Results

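The expression of 10 genes of transforming growth factor beta (TGF-β) signalling was examined in U2OS cells, a human osteosarcoma line, as the cultures grew past confluence and after depletion of the MMP-2 protease. The genes were the 3 ligands TGFB1, TGFB2 and TGFB3 and the receptors TGFBR1, TGFBR2 and TGFBR3. LTBP1 and LTBP2 of the latent TGF-β binding protein family, the induced matrix protein TGFBI and the inhibitory protein SMAD7 were also included. All 10 genes were chosen by gene symbol from the 55882 symbols of the count files. Each was found and passed the filter on low counts in every comparison. RNA was taken from 3 stable lines, labelled WT, MMP2KD_23 and MMP2KD_26, which are here called the pLKO.1 control, MMP2sh1 and MMP2sh2. Every line carried the lentiviral pLKO.1 vector, which was blank in the control and encoded a different shRNA against MMP2 in each of the other lines. Each line was sampled 2 days before confluence (day −2, labelled Proliferating), at confluence (day 0, Confluent) and 2 days later (day +2, OverConfluent), with 3 libraries for each of the 9 groups. The shRNA acted throughout culture, so the lines show a lasting depletion and not its first effects, and 1 line stands for each shRNA.

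TGF-β ligands are secreted as latent complexes in which the mature dimer is held by its own propeptide. A latent TGF-β binding protein (LTBP) can attach that complex to the extracellular matrix, and integrins and proteases release the ligand from it. Freed ligand binds TGFBR2, which recruits and phosphorylates TGFBR1, and TGFBR1 then phosphorylates SMAD2 and SMAD3, which enter the nucleus with SMAD4. TGFBR3, also called betaglycan, presents ligand to the signalling receptors and is needed most for TGFB2. SMAD7 is switched on by the pathway and blocks it at TGFBR1, and TGFBI is a secreted matrix protein named for its induction by TGF-β. In bone, TGF-β is stored in the matrix and is known to act on both the formation and the resorption of the tissue.

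Poly(A) RNA was sequenced, and the deposited values are whole-number counts of reads per gene, with 33580129 to 59374327 counts on genes per library. Levels are given in CPM, the counts divided by library depth, with the TMM factors of edgeR, as mean ± SD of 3 libraries. MMP2, the targeted gene, was lower in MMP2sh1, with log2 fold changes of −2.53, −2.47 and −2.34 at days −2, 0 and +2, and lower in MMP2sh2, with −0.70, −1.06 and −0.82. The lines thus held MMP2 at 40.1 to 97.1 CPM in MMP2sh1 and 143.6 to 278 CPM in MMP2sh2, beside 232 to 489.5 CPM in the control, as group means. Of the osteoblast markers, COL1A1 (1005 to 1486 CPM), SPARC (1182 to 2075 CPM) and RUNX2 (30.0 to 63.7 CPM) were present in all 27 libraries. SPP1 (6.33 to 26.3 CPM) and ALPL (0.397 to 6.98 CPM) were also counted in every library, while SP7 had 0 to 6 reads, BGLAP 0 to 22 and IBSP none (a limit of 0.0893 CPM in the smallest library, at 3 counts). Mitochondrial genes took 4.16% to 7.15% of the counts, with 4.16% to 6.55% at day −2 and 5.49% to 7.15% at day +2. Among 7 markers of leucocytes, macrophages, endothelium, epithelium and muscle found in the files, 5 stayed at or under 1.44 CPM in every library, while KRT8, an epithelial keratin, was at 225.9 to 569 CPM and EPCAM at 3.12 to 6.73 CPM. The summed level of the 7 markers was 344 to 374 CPM in the control at day −2 and 230 to 247 CPM at day +2, and it was 528 to 575 CPM in MMP2sh1 and 459 to 524 CPM in MMP2sh2 at day −2. The part of these differences in the results below was not tested.

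The DNA just upstream of the ligand genes and of TGFBI is shown because the mix of ligands is followed below and TGFBI had the largest log2 change of the 10 genes between days −2 and +2 in the control. Each window is the 150 bases before the start of the canonical transcript in GRCh37 (the build the authors call hg19), written 5′ to 3′ on the strand of the gene, and capitals mark matches to the letters named after the sequences.
TGFB1 (chr19:41859828-41859977, minus strand): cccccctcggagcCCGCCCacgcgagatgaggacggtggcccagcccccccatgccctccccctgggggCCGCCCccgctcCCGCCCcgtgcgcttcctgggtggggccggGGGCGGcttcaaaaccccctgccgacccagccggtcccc
TGFB2 (chr1:218518528-218518677, plus strand): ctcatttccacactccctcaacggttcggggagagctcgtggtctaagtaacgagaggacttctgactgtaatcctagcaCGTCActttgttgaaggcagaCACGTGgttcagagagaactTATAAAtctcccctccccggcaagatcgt
TGFB3 (chr14:76448339-76448488, minus strand): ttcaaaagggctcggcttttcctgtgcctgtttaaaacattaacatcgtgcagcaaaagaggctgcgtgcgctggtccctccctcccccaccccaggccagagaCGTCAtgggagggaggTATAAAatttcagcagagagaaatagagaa
TGFBI (chr5:135364527-135364676, plus strand): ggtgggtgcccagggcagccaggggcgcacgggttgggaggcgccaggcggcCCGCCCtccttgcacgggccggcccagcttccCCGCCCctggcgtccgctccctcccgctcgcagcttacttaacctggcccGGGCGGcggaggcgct
The TGFB1 window held 4 GC boxes (GGGCGG on either strand) and the TGFBI window held 3, with a GC content of 80.0% and 78.0%. The TGFB2 and TGFB3 windows held no GC box and had a GC content of 50.7% and 51.3%. TGFB2 had a TATA box (TATAAA, gene strand only) that ended 24 bases before the start, an E-box (CACGTG) at 44 bases and the core of a cyclic AMP response element (TGACG on either strand) at 66 bases. TGFB3 had a TATA box at 25 bases and the same response element core at 42 bases. Among windows of equal length before 34762 gene starts of RefSeq (GRCh38.p14), 4.55% held the TATA box, 4.55% the E-box, 15.3% the response element core and 36.8% a GC box. No window of the 10 genes held an AP-1 site (TGANTCA, in 4.2% of all windows) or a TEAD site (GGAATG, in 7.08%), both searched on either strand. The SMAD box CAGAC (either strand, in 23.6% of all windows) lay in the windows of TGFB2, LTBP1 and SMAD7, and in TGFB2 it shares its last base with the E-box and is not capitalised. The TGFB2 window lies in an exon of the antisense gene TGFB2-AS1, the TGFB1 window in an intron of TMEM91 on the other strand, and the TGFB3 window in introns of IFT43, on the other strand, and of longer TGFB3 transcripts.

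SMAD7 is shown for the palindrome to which SMAD proteins are known to bind. The 2000 bases before its start in GRCh37 were searched, and 1 copy was found, 1253 bases upstream, in the following 60 bases, where capitals mark GTCTAGAC and no gene is annotated.
SMAD7 (chr18:46478562-46478621, minus strand): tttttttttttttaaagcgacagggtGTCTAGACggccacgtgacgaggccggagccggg
The palindrome occurred in 1.23% of the 2000-base windows before 64222 gene starts of GENCODE. A match to these letters describes the sequence and does not show that a factor binds there.

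**Figure D1:**
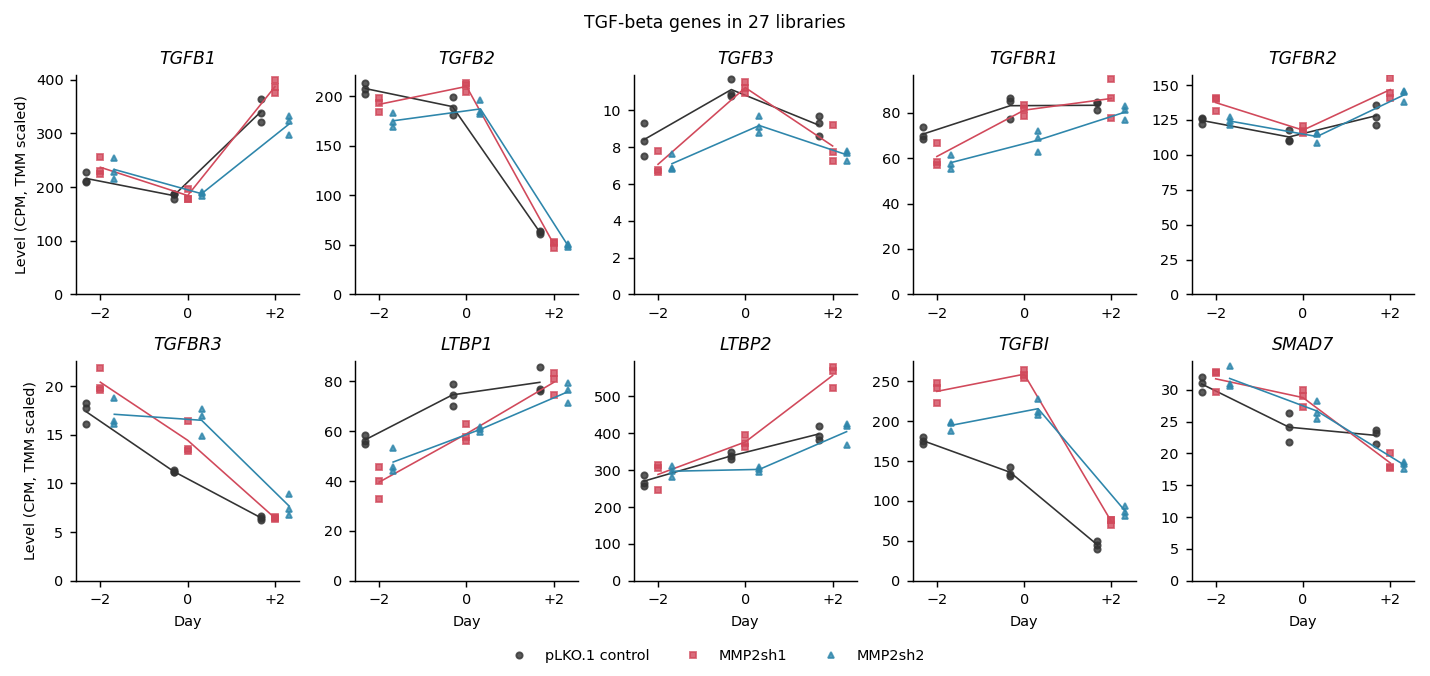
Level (CPM, TMM scaled, axis from 0) of each of the 10 genes by day in the pLKO.1 control, MMP2sh1 and MMP2sh2. Points are the 27 libraries and lines join the means of 3. TGFB2, TGFBR3 and TGFBI were lowest at day +2 in all 3 lines, and TGFBI was higher in both shRNA lines than in the control at days 0 and +2.

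Growth of the control culture from day −2 to day +2 raised 4 of the 10 genes (TGFB1, TGFBR1, LTBP1 and LTBP2) and lowered 4 (TGFB2, TGFBR3, TGFBI and SMAD7). TGFB3 and TGFBR2 missed the threshold. A gene was called when the adjusted p of edgeR's quasi-likelihood test, with the Benjamini-Hochberg adjustment over all genes tested, was under 0.05. Of all 19099 genes tested in this comparison, 56.8% were called, 28.1% higher and 28.6% lower, which is the share to read the 8 of 10 against. The median log2 fold change of the 10 genes was 0.09 and that of all genes was 0.03. In bulk samples, fewer cells of a kind and less RNA per cell cannot be told apart.

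Among the ligands, TGFB2 fell and TGFB1 rose. TGFB2, the isoform that needs betaglycan most, was at 214, 208 and 202 CPM at day −2, then 188, 199 and 181 CPM at confluence and finally 63.0, 61.3 and 64.4 CPM at day +2. The day +2 libraries were all far below the others, and the libraries of days −2 and 0 lay close together without overlapping. From day −2 to day +2 the log2 fold change of TGFB2 was −1.72 ± 0.05 (SE; adjusted p = 2.1e-20, edgeR), and nearly all of it came after confluence, with −1.57 ± 0.05 from day 0 to day +2 (adjusted p = 1.2e-20, edgeR) and −0.13 ± 0.05 before it (adjusted p = 0.032, edgeR). The small early change missed the threshold without a filter on low counts (adjusted p = 0.055, edgeR) and without control replicate 1 or 2 of day −2 or replicate 1 or 3 of day 0, at log2 fold changes of −0.13 to −0.10.

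TGFB1, the most widely expressed isoform, was at 209.5, 211 and 227 CPM at day −2, then 187, 177 and 187 CPM at confluence and finally 321, 337 and 363 CPM at day +2. It dipped at confluence and was highest past it, with no overlap between any of the 3 days. Up to confluence its log2 fold change was −0.22 ± 0.05 (adjusted p = 0.00031, edgeR), after confluence it was 0.91 ± 0.05 (adjusted p = 9.4e-16, edgeR) and 0.66 ± 0.05 over the whole course (adjusted p = 1.5e-11, edgeR). TGFB3 was much less abundant, at 8.41 ± 0.89 CPM at day −2, 11.1 ± 0.49 CPM at day 0 and 9.20 ± 0.53 CPM at day +2. It was higher at day 0 than at day −2 (log2 fold change 0.41 ± 0.12, adjusted p = 0.0071, edgeR), and its values at days −2 and +2 overlapped (0.13 ± 0.12, adjusted p = 0.37, edgeR).

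The opposite course of TGFB1 and TGFB2 after confluence changed the mix of ligand mRNA, which was compared within each library. Per base of the canonical transcript, TGFB2 was present at 0.457 ± 0.032 of the TGFB1 level in the control at day −2, 0.489 ± 0.039 at confluence and 0.0878 ± 0.0048 past it. In the 3 control libraries of day +2 the ratio was 0.0931, 0.0862 and 0.0840, below every library of the earlier days. TGFB1 thus made up 67.2% ± 1.6 of the summed level of the 3 ligands at day −2, 65.0% ± 1.6 at day 0 and 90.1% ± 0.39 at day +2, while TGFB2 went from 30.7% ± 1.4 to 7.91% ± 0.39. The same ratio at days −2, 0 and +2 was 0.386 ± 0.038, 0.542 ± 0.041 and 0.0621 ± 0.0026 in MMP2sh1. In MMP2sh2 it was 0.359 ± 0.040, 0.474 ± 0.031 and 0.0745 ± 0.0063. Every day 0 library of these lines was above those of day −2 of its line, whereas these days overlapped in the control. With the length of all annotated exons in place of the canonical transcript, the control ratio was 0.521 at day −2 and 0.0999 at day +2. These levels carry a limit, because 2072 of the 5868 bases of the TGFB2 transcript (35.3%) are shared with annotated exons of TGFB2-AS1 and TGFB2-OT1, and the reads were counted without regard to strand. Neither symbol was found among the counted genes. Reads on the shared bases would be missing from TGFB2 if these genes were counted under other names and would be added to TGFB2 if they were not counted, and these cases cannot be told apart. The summed ligand level was 115.5 ± 2.6, 101.7 ± 0.84 and 135.8 ± 8.0 CPM per kilobase at days −2, 0 and +2.

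**Figure D2:**
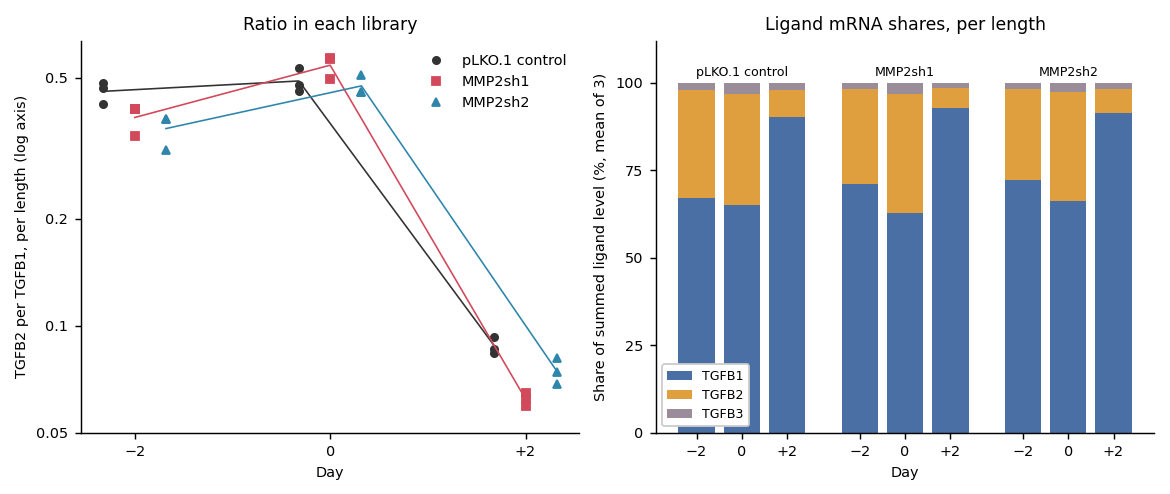
Left, TGFB2 level divided by TGFB1 level, each per base of its canonical transcript, in each of the 27 libraries (log axis, the lines of cells set side by side at each day), with lines through the means of 3. Right, mean share (%) of each ligand in the summed level of the 3 ligands. TGFB1 made up 90.1% of the sum in the control at day +2, and 67.2% at day −2.

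The receptors moved less, except for TGFBR3. TGFBR3, the betaglycan co-receptor, was at 18.3, 16.1 and 17.7 CPM at day −2, then 11.2, 11.2 and 11.4 CPM at confluence and finally 6.44, 6.28 and 6.68 CPM at day +2. It was lower on each later day in all libraries, and no 2 days overlapped. Its log2 fold change was −0.62 ± 0.10 up to confluence (adjusted p = 8.8e-06, edgeR), −0.77 ± 0.12 after it (adjusted p = 4.4e-06, edgeR) and −1.42 ± 0.11 in all (adjusted p = 1.2e-11, edgeR). TGFBR1, the kinase that phosphorylates SMAD2 and SMAD3, rose from 70.5 ± 2.6 CPM at day −2 to 83.0 ± 4.9 CPM at day 0 and was at 83.2 ± 2.0 CPM at day +2 (day +2 against day −2, log2 fold change 0.24 ± 0.05, adjusted p = 0.00034, edgeR). TGFBR2, the ligand-binding kinase, was at 124.7 ± 2.5, 112.8 ± 4.1 and 128.1 ± 7.3 CPM on the 3 days. Its lower level at day 0 was called (log2 fold change −0.14 ± 0.05, adjusted p = 0.024, edgeR), but not without control replicate 1 of day −2 or replicate 1 or 2 of day 0 (−0.13 to −0.12). Its return by day +2 was also called (0.20 ± 0.05, adjusted p = 0.0018, edgeR), and days −2 and +2 overlapped.

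Both LTBP genes rose between day −2 and day +2, with different courses. LTBP2, a matrix protein of the LTBP family that does not itself bind latent TGF-β, was at 257, 266 and 288 CPM at day −2, then 329, 338 and 349.5 CPM at confluence and finally 419, 382 and 393 CPM at day +2. Every library was above all those of the day before it. LTBP2 had a log2 fold change of 0.33 ± 0.05 up to confluence (adjusted p = 1.6e-06, edgeR) and 0.25 ± 0.05 after it (adjusted p = 3e-05, edgeR), or 0.56 ± 0.05 in all (adjusted p = 2.3e-10, edgeR). LTBP1, which anchors the latent complex to the matrix, was at 56.6 ± 1.8 CPM at day −2, 74.6 ± 4.5 CPM at day 0 and 79.6 ± 5.2 CPM at day +2. Its rise came before confluence, with a log2 fold change of 0.41 ± 0.06 (adjusted p = 2.3e-06, edgeR), whereas days 0 and +2 overlapped (0.12 ± 0.06, adjusted p = 0.13, edgeR). Without control replicate 2 of day 0, that later difference was called at 0.16.

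TGFBI and SMAD7, which are known to be induced by TGF-β, both fell. TGFBI was at 181, 171 and 175 CPM at day −2, then 131, 134 and 143 CPM at confluence and finally 40.4, 44.8 and 49.4 CPM at day +2. Each day was below the one before, with the larger part of the fall after confluence. TGFBI had a log2 fold change of −0.36 ± 0.05 up to confluence (adjusted p = 4.8e-07, edgeR), −1.58 ± 0.06 after it (adjusted p = 5.7e-19, edgeR) and −1.96 ± 0.06 in all (adjusted p = 7.5e-20, edgeR). A larger absolute change was fitted for 5.03% of the genes tested. SMAD7 was at 30.9 ± 1.2 CPM at day −2, 24.1 ± 2.3 CPM at day 0 and 22.8 ± 1.1 CPM at day +2. Its fall came before confluence (log2 fold change −0.35 ± 0.08, adjusted p = 0.00075, edgeR), and days 0 and +2 overlapped (−0.06 ± 0.08, adjusted p = 0.64, edgeR).

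Between day −2 and day 0, all 10 genes were called, 4 higher and 6 lower, where 35.5% of all genes were called, 16.4% higher and 19.1% lower. Between day 0 and day +2 it was 6 of 10, 3 higher and 3 lower, against 41.4% of all genes, 21.3% higher and 20.1% lower.

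Levels of different genes were compared as CPM per kilobase of the canonical transcript. In the control at day −2, the order was TGFB1 (77.6 ± 3.6), TGFBI (64.8 ± 1.7), TGFB2 (35.4 ± 0.97), LTBP2 (31.9 ± 1.9), TGFBR2 (27.5 ± 0.55), TGFBR1 (10.9 ± 0.41), SMAD7 (9.25 ± 0.36), LTBP1 (8.70 ± 0.28), TGFBR3 (2.74 ± 0.18) and TGFB3 (2.45 ± 0.26). Neighbours overlapped between libraries only for SMAD7 with LTBP1 and for TGFBR3 with TGFB3. At day +2, TGFB1 still led at 122 ± 7.7, followed by LTBP2 at 47.0 ± 2.2, TGFBR2 at 28.3 ± 1.6 and TGFBI at 16.5 ± 1.7, and TGFB2 stood in place 7 at 10.7 ± 0.26. Only TGFBR1 and LTBP1 overlapped as neighbours on that day. With the length of all annotated exons, TGFBI moved to place 4 at day −2 and to place 7 at day +2, and TGFB1 led on both days.

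From day −2 to day +2, most of these genes changed in the same direction in the shRNA lines as in the control. The way through day 0 was not tested within these lines and differed for some genes. TGFB2 had a higher mean at day 0 (210.0 ± 4.7 CPM in MMP2sh1, 187.3 ± 7.5 in MMP2sh2) than at day −2 (192.0 ± 6.9 and 175.3 ± 7.6), unlike the control. TGFBR3 in MMP2sh2 was at 17.1 ± 1.4 CPM at day −2 and 16.5 ± 1.4 CPM at day 0. The same 8 genes that were called in the control between day −2 and day +2 were also called, with the same sign, in MMP2sh1 (8 of 10, with 54.9% of all genes called, 27.3% higher and 27.7% lower) and in MMP2sh2 (9 of 10, with 54.7% called, 27.7% higher and 27.1% lower). The added gene in MMP2sh2 was TGFBR2 (log2 fold change 0.21 ± 0.06, adjusted p = 0.0037, edgeR). TGFB2 fell from 193, 198 and 185 CPM to 47.2, 52.7 and 52.3 CPM in MMP2sh1, and from 174, 184 and 169 CPM to 50.3, 48.0 and 50.7 CPM in MMP2sh2. That is a log2 fold change of −1.92 ± 0.07 (adjusted p = 7.7e-17, edgeR) and of −1.81 ± 0.06 (adjusted p = 4.5e-21, edgeR). TGFB1 rose by a log2 fold change of 0.70 ± 0.06 in MMP2sh1 and 0.45 ± 0.06 in MMP2sh2, and TGFBR3 fell with −1.67 ± 0.11 and −1.15 ± 0.12. In both lines as in the control, TGFB3 did not pass the threshold.

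**Figure D3:**
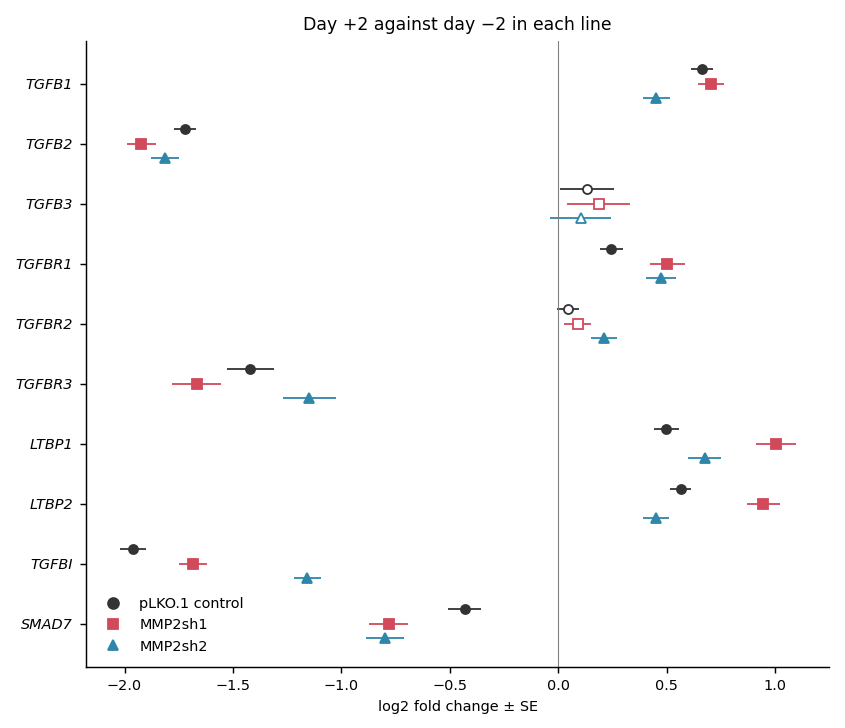
Log2 fold change (± SE) of each gene from day −2 to day +2 in the pLKO.1 control, MMP2sh1 and MMP2sh2, each from 3 libraries against 3. Filled symbols passed an adjusted p of 0.05 and open ones did not. TGFB2 lay between −1.92 and −1.72 in the 3 lines, and TGFBI between −1.96 and −1.16.

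Whether a line changed differently from the control over these days was tested as the interaction of line and day in 12 libraries. TGFBI, LTBP1 and LTBP2 were called for MMP2sh1 (3 of 10, with 7.4% of all genes called, 4.52% higher and 2.88% lower), and TGFBI and SMAD7 for MMP2sh2 (2 of 10, with 4.98% called, 2.71% higher and 2.28% lower). TGFBI fell less in MMP2sh2, from 198, 188 and 199 CPM to 86.5, 81.1 and 93.3 CPM (log2 fold change −1.16 ± 0.06), than in the control, and the interaction was 0.80 ± 0.09 (adjusted p = 1.4e-07, edgeR). In MMP2sh1 TGFBI went from 242, 222.7 and 248 CPM to 75.8, 70.5 and 75.7 CPM (−1.68 ± 0.06), with an interaction of 0.29 ± 0.09 (adjusted p = 0.046, edgeR) that was called in 3 of the 12 fits with a library left out. Only the fits without control replicate 3 of day +2, MMP2sh1 replicate 1 of day −2 and MMP2sh1 replicate 2 of day +2 kept that call, and the others gave 0.22 to 0.30. Median-of-ratios scaling also ended the call (0.28, adjusted p = 0.057, edgeR).

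LTBP1 and LTBP2 rose further in MMP2sh1 than in the control. LTBP1 went from 33.0, 39.9 and 45.8 CPM to 81.1, 83.5 and 74.4 CPM in MMP2sh1, starting below every control library of day −2 and overlapping with those of day +2. The interaction was 0.51 ± 0.11 for LTBP1 (adjusted p = 0.0044, edgeR) and 0.39 ± 0.10 for LTBP2 (adjusted p = 0.010, edgeR), and both were called in all 12 fits with a library left out. In MMP2sh2 the interactions of LTBP1 (0.17 ± 0.10, adjusted p = 0.37, edgeR) and LTBP2 (−0.12 ± 0.08, adjusted p = 0.49, edgeR) missed the threshold. SMAD7 fell to 18.3, 18.6 and 17.6 CPM in MMP2sh2 and to 20.0, 17.8 and 17.7 CPM in MMP2sh1, below all control libraries of day +2. Its interaction was −0.37 ± 0.11 for MMP2sh2 (adjusted p = 0.046, edgeR), but in each of the 12 fits with a library left out the value, −0.40 to −0.32, missed the threshold, as it did without a filter on low counts (−0.37, adjusted p = 0.077, edgeR). For MMP2sh1 it was −0.34 ± 0.11 (adjusted p = 0.066, edgeR), which passed without MMP2sh1 replicate 1 of day −2 or of day +2 (−0.40 to −0.39). The SMAD7 interaction of MMP2sh1 was also called in 3 of the 6 alternatives, by DESeq2 (adjusted p = 0.033), with the stricter minimum of 10 counts in each library (adjusted p = 0.042, edgeR) and with all 27 libraries in one fit (adjusted p = 0.047, edgeR). TGFBR1, at 0.27 ± 0.10 for MMP2sh1 (adjusted p = 0.10, edgeR), also passed without either of these libraries, at 0.34.

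**Figure D4:**
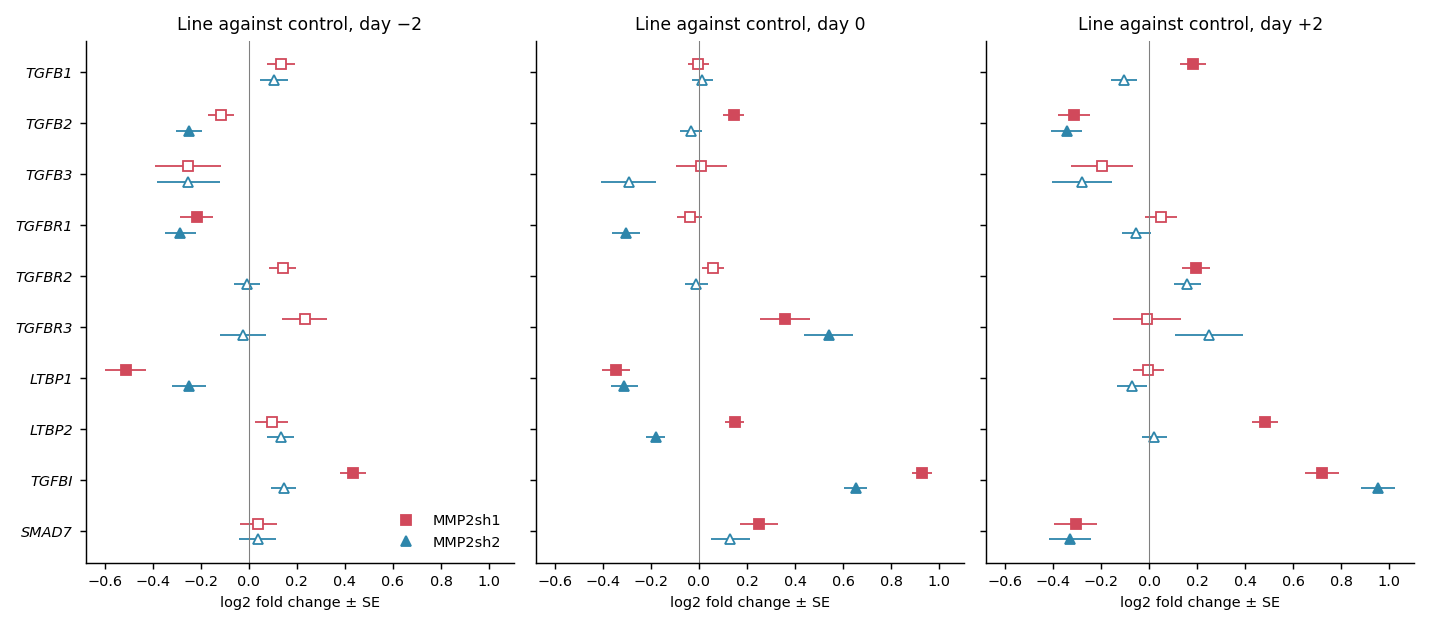
Log2 fold change (± SE) of each gene in MMP2sh1 and MMP2sh2 against the pLKO.1 control at days −2, 0 and +2. Filled symbols passed an adjusted p of 0.05. TGFBI at days 0 and +2 lay at 0.65 to 0.95, the largest differences of the 10 genes on those days.

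Depletion of MMP-2 was compared with the control on each day, and both lines were set against the same control libraries. The most lasting difference was a higher level of TGFBI. In MMP2sh1 at day −2, 1 of the 10 genes was higher and 2 were lower, where 11.6% of all genes were called (5.42% higher, 6.14% lower). At day 0, 5 were higher and 1 was lower, with 16.8% of all genes called (8.26% and 8.58%), and at day +2, 4 were higher and 2 lower, with 14.8% called (7.68% and 7.11%). In MMP2sh2 at day −2, 0 were higher and 3 lower, with 11% of all genes called (4.71% and 6.33%). At day 0, 2 were higher and 3 lower, with 12.9% called (7.07% and 5.81%), and at day +2, 1 was higher and 2 were lower, with 6.32% called (2.89% and 3.43%). The median log2 fold change of the 10 genes lay between −0.06 and 0.10 in these 6 comparisons, and that of all genes was 0.00.

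TGFBI was at 265, 258 and 254 CPM in MMP2sh1 at day 0 and at 211, 228 and 207.5 CPM in MMP2sh2, where the control libraries held 131, 134 and 143 CPM. Both lines were above every control library on this day and at day +2. For MMP2sh1 the log2 fold changes were 0.43 ± 0.05 at day −2 (adjusted p = 5.1e-06, edgeR), 0.93 ± 0.04 at day 0 (adjusted p = 2.8e-17, edgeR) and 0.72 ± 0.07 at day +2 (adjusted p = 8.1e-09, edgeR). MMP2sh2 gave 0.14 ± 0.05 at day −2 (adjusted p = 0.073, edgeR), 0.65 ± 0.05 at day 0 (adjusted p = 1.4e-12, edgeR) and 0.95 ± 0.07 at day +2 (adjusted p = 1.7e-13, edgeR). At day +2 in MMP2sh2, 3.30% of the genes tested had a larger absolute change. Within the lines, TGFBI was at 237 ± 13.1 CPM at day −2 and 259 ± 5.2 CPM at day 0 in MMP2sh1, and at 194.7 ± 5.7 and 216 ± 11.2 CPM in MMP2sh2, without overlap, while the control fell, and the change between these days in the lines was not tested.

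Differences in the ligands were small. TGFB2 was lower at day +2 in MMP2sh1 (50.7 ± 3.1 CPM, log2 fold change −0.31 ± 0.07, adjusted p = 0.0010, edgeR) and in MMP2sh2 (49.65 ± 1.4 CPM, −0.34 ± 0.06, adjusted p = 0.00027, edgeR) than in the control (62.9 ± 1.5 CPM), with every library of the lines below every control library. At day −2 it was lower in MMP2sh2 (−0.25 ± 0.05, adjusted p = 0.0033, edgeR) and at −0.12 ± 0.05 in MMP2sh1 (adjusted p = 0.18, edgeR). At day 0 the value was 0.14 ± 0.04 in MMP2sh1 (adjusted p = 0.017, edgeR) and −0.03 ± 0.05 in MMP2sh2 (adjusted p = 0.73, edgeR). The call in MMP2sh1 at day 0 was lost without control replicate 1 or 3 or MMP2sh1 replicate 1 or 2, at 0.11 to 0.14. TGFB1 was higher only in MMP2sh1 at day +2 among the 6 comparisons with the control (386.8 ± 11.2 against 340.3 ± 21.4 CPM, log2 fold change 0.18 ± 0.05, adjusted p = 0.018, edgeR), and this was lost without control replicate 1 or 2 or MMP2sh1 replicate 2 or 3, at 0.14 to 0.18. TGFB3, with 246 to 677 counts per library, passed in none of the 6, and its log2 fold changes lay between −0.29 and 0.01.

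Receptor differences changed with the day. TGFBR1 was lower at day −2 in MMP2sh1 (60.7 ± 5.3 against 70.5 ± 2.6 CPM, log2 fold change −0.22 ± 0.07, adjusted p = 0.035, edgeR) and in MMP2sh2 (58.0 ± 3.2 CPM, −0.28 ± 0.06, adjusted p = 0.0049, edgeR). Any control replicate or MMP2sh1 replicate 2 or 3, when left out, ended the call in MMP2sh1 (−0.24 to −0.17). At day 0 it was lower in MMP2sh2 (−0.31 ± 0.06, adjusted p = 0.00034, edgeR), and at day +2 all 3 lines overlapped. TGFBR3 was higher at day 0, at 13.3, 16.4 and 13.5 CPM in MMP2sh1 and 14.9, 17.6 and 17.0 CPM in MMP2sh2, beside 11.2, 11.2 and 11.4 CPM in the control. These are log2 fold changes of 0.36 ± 0.10 (adjusted p = 0.014, edgeR) and 0.54 ± 0.10 (adjusted p = 0.00026, edgeR), and the former dropped to 0.26 and was not called without MMP2sh1 replicate 2. TGFBR2 was called in MMP2sh1 at day +2 (146.8 ± 7.6 against 128.1 ± 7.3 CPM, 0.19 ± 0.06, adjusted p = 0.023, edgeR) but not without control replicate 2 or 3 or MMP2sh1 replicate 2 or 3 (0.15 to 0.20). It was at 0.16 ± 0.06 in MMP2sh2 (adjusted p = 0.094, edgeR), and passed there without control replicate 1, at 0.20. In MMP2sh1 at day −2 it was at 0.14 ± 0.06 (adjusted p = 0.10, edgeR) and passed without MMP2sh1 replicate 1, at 0.17.

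LTBP1 was lower in both lines until confluence and was level with the control past it. At day 0 the libraries held 56.1, 57.8 and 63.1 CPM in MMP2sh1 and 61.0, 59.8 and 61.5 CPM in MMP2sh2, below the 70.1, 79.2 and 74.6 CPM of the control. LTBP1 thus had log2 fold changes of −0.34 ± 0.06 (adjusted p = 3.9e-05, edgeR) and −0.31 ± 0.06 (adjusted p = 0.00019, edgeR). At day −2 it was −0.51 ± 0.08 in MMP2sh1 (adjusted p = 0.00016, edgeR) and −0.25 ± 0.07 in MMP2sh2 (adjusted p = 0.026, edgeR), and the call in MMP2sh2 was lost without any control replicate or MMP2sh2 replicate 1 or 3 (−0.27 to −0.19). At day +2 the lines overlapped with the control, at 79.6 ± 4.7, 75.8 ± 4.1 and 79.6 ± 5.2 CPM in MMP2sh1, MMP2sh2 and control.

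LTBP2 differed between the lines. In MMP2sh1 it was higher at day +2, at 568, 580 and 523 CPM against 419, 382 and 393 CPM, a log2 fold change of 0.48 ± 0.05 (adjusted p = 7.3e-08, edgeR). MMP2sh2 overlapped with the control on that day, at 419, 424 and 369 CPM (0.02 ± 0.05, adjusted p = 0.89, edgeR). At day 0 LTBP2 was higher in MMP2sh1 (0.15 ± 0.04, adjusted p = 0.0068, edgeR) and lower in MMP2sh2 (−0.18 ± 0.04, adjusted p = 0.0021, edgeR). Both day 0 calls were lost when all 27 libraries were fitted together (adjusted p = 0.12 and 0.094, edgeR), and that in MMP2sh1 also without control replicate 1 or MMP2sh1 replicate 3 (0.12 to 0.13). Without MMP2sh1 replicate 1 the day −2 value of 0.09 ± 0.07 rose to 0.20 and was called.

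SMAD7 was lower at day +2 in both lines (18.5 ± 1.3 CPM in MMP2sh1, 18.2 ± 0.50 CPM in MMP2sh2 and 22.8 ± 1.1 CPM in the control), with no overlap. The log2 fold change was −0.31 ± 0.09 (adjusted p = 0.018, edgeR) and −0.33 ± 0.09 (adjusted p = 0.015, edgeR). The call was lost in MMP2sh1 without control replicate 1 or 3 or MMP2sh1 replicate 2 or 3 (−0.29 to −0.27), and in MMP2sh2 without control replicate 1 or 3 or MMP2sh2 replicate 1 (−0.33 to −0.30). At day 0 it was higher in MMP2sh1 (0.25 ± 0.08, adjusted p = 0.024, edgeR), but not without control replicate 1 or 2 or MMP2sh1 replicate 2 or 3 (0.19 to 0.25), and at 0.13 ± 0.08 in MMP2sh2 (adjusted p = 0.35, edgeR).

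The 2 shRNA lines were also compared with each other, as MMP2 was depleted more deeply in MMP2sh1. At day −2, 1 of the 10 genes was called (TGFBI, higher in MMP2sh1, log2 fold change 0.28 ± 0.06, adjusted p = 0.0025, edgeR), with 10.7% of all genes called (5.01% higher, 5.69% lower). LTBP1, at −0.27 ± 0.10 (adjusted p = 0.071, edgeR), was called without MMP2sh1 replicate 3, at −0.39. At day 0, 5 were called, all higher in MMP2sh1, with 18.5% of all genes called (8.9% higher, 9.62% lower). They were LTBP2 (0.33 ± 0.04), TGFB3 (0.31 ± 0.11), TGFBI (0.28 ± 0.04), TGFBR1 (0.27 ± 0.05) and TGFB2 (0.18 ± 0.04). TGFB3 had an adjusted p of 0.046 (edgeR) and was lost whichever of the 6 libraries was left out (0.27 to 0.34), by DESeq2 (adjusted p = 0.066), in the unfiltered fit and in that of all 27 libraries. At day +2, with 7.86% of all genes called (4.59% higher, 3.27% lower), LTBP2 (0.46 ± 0.06, adjusted p = 6.4e-06, edgeR) and TGFB1 (0.28 ± 0.05, adjusted p = 0.0010, edgeR) were higher in MMP2sh1 and TGFBI was lower (−0.24 ± 0.06, adjusted p = 0.023, edgeR). The TGFBI call at day +2 was lost without MMP2sh1 replicate 2 or MMP2sh2 replicate 1 or 3, at −0.24 to −0.18.

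Other genes of the pathway were followed in 3 lists. In the list of latency and activation (LTBPs, fibrillins, integrins and matrix proteins, 18 of 20 genes tested), 10 genes rose and 5 fell in the control from day −2 to day +2, and the median log2 fold change was 0.36 beside 0.03 for all genes. Of all genes in that comparison, 56.8% were called, 28.1% higher and 28.6% lower. LTBP3, which helps the ligand to be secreted, rose from 78.6 ± 7.4 to 310.0 ± 26.1 CPM (log2 fold change 1.99 ± 0.06, adjusted p = 1.3e-19, edgeR), and ITGB3, a subunit of an integrin that binds latent TGF-β, from 8.18 ± 0.63 to 38.2 ± 2.9 CPM (2.22 ± 0.09, adjusted p = 2.1e-17, edgeR). MFAP5, a protein of elastic microfibrils, fell from 20.6 ± 1.3 to 2.58 ± 0.43 CPM (−2.98 ± 0.13, adjusted p = 9.6e-17, edgeR). BGN, a small proteoglycan, was counted 2 to 13 times per library at day −2 and 36 to 52 times at day +2 (2.83 ± 0.53, adjusted p = 5.7e-05, edgeR).

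Of 20 co-receptors and SMAD signalling genes, 6 rose and 5 fell in the control, beside 28.1% and 28.6% of all genes, with a median of −0.03. SMAD3, the effector that carries the signal to DNA, fell from 167 ± 4.3 to 89.1 ± 5.2 CPM (log2 fold change −0.90 ± 0.05, adjusted p = 4.2e-14, edgeR), and STRAP, a protein that aids SMAD7 at the receptor, fell with −0.72 ± 0.05 (adjusted p = 7.2e-13, edgeR). PMEPA1, a feedback inhibitor that the pathway induces, rose from 366 ± 7.4 to 610.3 ± 5.5 CPM (0.75 ± 0.04, adjusted p = 4.9e-14, edgeR). The pseudoreceptor BAMBI was called at 0.38 ± 0.14 (adjusted p = 0.026, edgeR), but not by DESeq2 and not without control replicate 1 or 3 of day −2 or replicate 2 or 3 of day +2 (0.26 to 0.39).

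Of 26 SMAD target genes, 23 were tested, and 11 rose and 9 fell in the control, again beside 28.1% and 28.6% of all genes, with a median of 0.08. HAS2, a hyaluronan synthase, rose from 4.10 ± 0.28 to 75.3 ± 3.3 CPM (log2 fold change 4.20 ± 0.08, adjusted p = 7.1e-24, edgeR). The cell cycle inhibitor CDKN2B was called higher, with 1 to 4 counts per library at day −2 and 22 to 26 at day +2. TAGLN, an actin-binding protein of contractile cells, fell from 61.1 ± 9.0 to 7.85 ± 0.73 CPM (−2.95 ± 0.10, adjusted p = 3e-19, edgeR), and the metalloprotease ADAM12 fell from 72.6 ± 1.9 to 12.4 ± 1.3 CPM (−2.55 ± 0.08, adjusted p = 2.9e-20, edgeR).

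**Figure D5:**
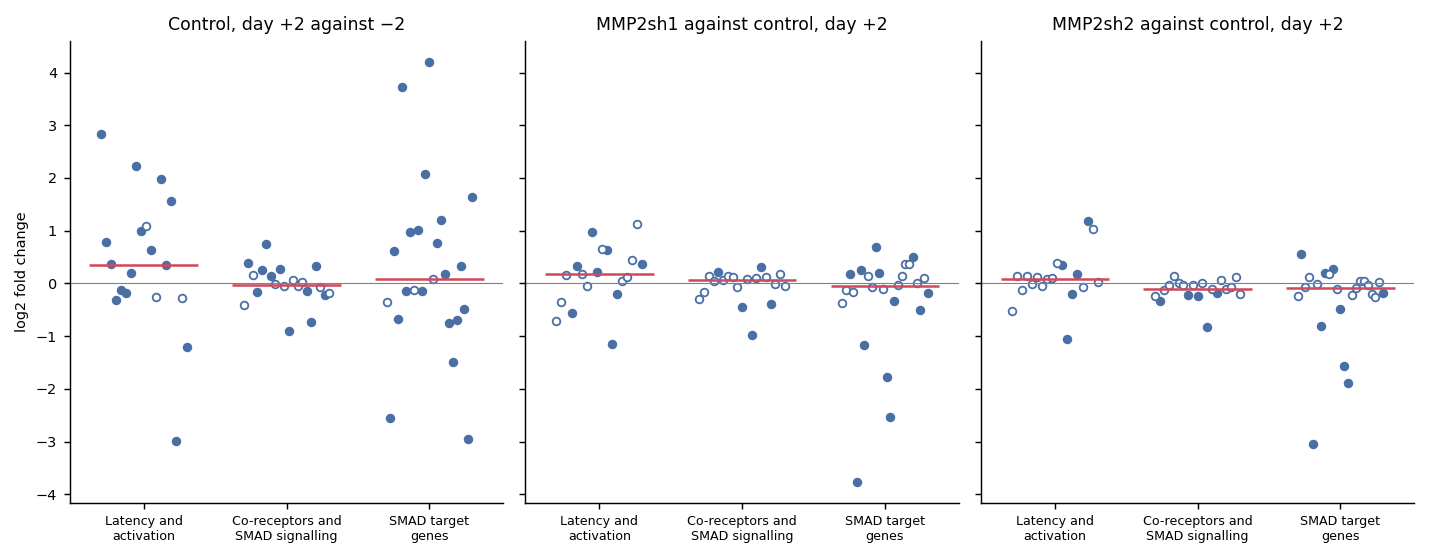
Log2 fold change of every tested gene of the 3 pathway lists in the control (day +2 against day −2) and in MMP2sh1 and MMP2sh2 against the control at day +2. Filled points passed an adjusted p of 0.05, and the bar is the median of the list. The medians in the control were 0.36, −0.03 and 0.08.

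In MMP2sh1 at day +2, 5 genes of latency and activation were higher and 3 lower of 18, 2 SMAD signalling genes were higher and 3 lower of 19, and 5 targets were higher and 7 lower of 24. Of all genes, 14.8% were called in that comparison, 7.68% higher and 7.11% lower. In MMP2sh2 the counts were 3 and 2 of 18, 0 and 5 of 19, and 3 and 6 of 23, with 6.32% of all genes called (2.89% higher, 3.43% lower). List medians lay between −0.06 and 0.17 in MMP2sh1 and between −0.10 and 0.09 in MMP2sh2. Inhibitors of differentiation and an inhibitory SMAD were lower in each line. ID3 was at 29.3 ± 2.8 CPM in MMP2sh1 and 45.5 ± 7.7 CPM in MMP2sh2 against 169 ± 20.7 CPM in the control (log2 fold change −2.53 ± 0.08, adjusted p = 6.4e-20, and −1.89 ± 0.08, adjusted p = 2.4e-21, edgeR). ID1 was at 59.2 ± 4.6 and 67.7 ± 6.5 CPM against 201 ± 34.5 CPM (−1.77 ± 0.08, adjusted p = 1.0e-15, and −1.57 ± 0.08, adjusted p = 1.6e-19, edgeR). SMAD6, which like SMAD7 blocks the receptors and acts mainly on the BMP branch, was at 19.8 ± 1.5 and 22.2 ± 2.4 CPM against 39.1 ± 4.3 CPM (−0.98 ± 0.09, adjusted p = 1.2e-09, and −0.82 ± 0.09, adjusted p = 3.2e-09, edgeR). ID1 and ID3 are also known as targets of BMP signalling.

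The difference at day +2 was not seen at day −2. On that day ID3 had log2 fold changes of 0.09 ± 0.06 in MMP2sh1 (adjusted p = 0.36, edgeR) and 0.30 ± 0.06 in MMP2sh2 (adjusted p = 0.0029, edgeR), ID1 of 0.17 ± 0.06 (adjusted p = 0.074, edgeR) and 0.26 ± 0.06 (adjusted p = 0.0058, edgeR), and SMAD6 of 0.16 ± 0.08 (adjusted p = 0.2, edgeR) and 0.36 ± 0.07 (adjusted p = 0.0021, edgeR), so that all 3 were higher in MMP2sh2. At day 0, ID3 was lower in MMP2sh1 (−0.24 ± 0.06, adjusted p = 0.0027, edgeR; not by DESeq2, in the fit of all 27 libraries, or without control replicate 1 or MMP2sh1 replicate 2, −0.19 to −0.14), and the other 5 values, −0.03 to 0.17, missed the threshold. In the control itself ID3 rose from day −2 to day +2 (0.77 ± 0.06, adjusted p = 9.6e-11, edgeR), while ID1 was at 0.08 ± 0.08 (adjusted p = 0.41, edgeR) and SMAD6 at −0.05 ± 0.08 (adjusted p = 0.61, edgeR).

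Further genes of the lists differed at day +2, and some also differed on the earlier days. COL3A1, a fibrillar collagen, was at 36.1 ± 3.1 CPM in MMP2sh1 and 46.4 ± 6.6 CPM in MMP2sh2 against 81.1 ± 3.5 CPM in the control (−1.17 ± 0.07, adjusted p = 3.3e-13, and −0.81 ± 0.07, adjusted p = 6.6e-11, edgeR). COL3A1 was also lower on both earlier days in each line, in all 6 fits with a library left out. MMP2sh1 gave −1.9 to −1.7 at day −2 and −1.8 to −1.6 at day 0. MMP2sh2 gave −0.45 to −0.30 and −0.88 to −0.75. SMAD3 was lower in MMP2sh1 (65.1 ± 4.7 against 89.1 ± 5.2 CPM, −0.45 ± 0.07, adjusted p = 7.7e-06, edgeR) and in MMP2sh2 (−0.24 ± 0.06, adjusted p = 0.013, edgeR), the latter not without control replicate 1 or 3 or MMP2sh2 replicate 2 (−0.24 to −0.19). ITGB8, a subunit of an integrin that frees TGF-β, was higher in MMP2sh1 (82.6 ± 10.2 against 52.9 ± 3.4 CPM, 0.64 ± 0.08, adjusted p = 2.6e-07, edgeR) and in MMP2sh2 (67.3 ± 2.0 CPM, 0.35 ± 0.07, adjusted p = 0.00028, edgeR). In MMP2sh2 it was lower than in the control on both earlier days, at −0.30 ± 0.08 on day −2 (adjusted p = 0.017, edgeR) and −0.33 ± 0.07 on day 0 (adjusted p = 0.0010, edgeR), the former not without control replicate 1 or 3 or MMP2sh2 replicate 1 or 2 (−0.31 to −0.25). SMAD3 was higher in MMP2sh2 on these days (0.26 ± 0.05, adjusted p = 0.0018, and 0.40 ± 0.05, adjusted p = 3.4e-08, edgeR). ITGB3 was higher in MMP2sh1 (74.7 ± 3.2 against 38.2 ± 2.9 CPM, 0.97 ± 0.07, adjusted p = 1.7e-11, edgeR), as was the SMAD ubiquitin ligase SMURF2 (0.32 ± 0.06, adjusted p = 0.00019, edgeR). In MMP2sh2 SMURF2 went the other way at day +2 and was called lower. That call held in 1 of the 6 fits with a library left out (−0.22 to −0.14), and not with median-of-ratios scaling, without the filter or with the replicate block. ITGB3 was lower in MMP2sh2 at day 0, in all 6 such fits (−0.75 to −0.53). The fibrillin FBN2 (−0.56 ± 0.08, adjusted p = 5.6e-06, edgeR) and the corepressor TGIF1 (−0.40 ± 0.06, adjusted p = 2.0e-05, edgeR) were lower in MMP2sh1. With a library left out, FBN2 was also lower there at day −2 (−0.74 to −0.60) and day 0 (−0.80 to −0.65), and TGIF1 at day 0 (−0.36 to −0.28). MFAP5 was higher in MMP2sh2 (5.90 ± 0.89 against 2.58 ± 0.43 CPM, 1.19 ± 0.19, adjusted p = 1.3e-05, edgeR). On both earlier days MFAP5 was higher in each line, in all 6 fits with a library left out. At days −2 and 0, MMP2sh1 gave 0.33 to 0.43 and 0.56 to 0.78, and MMP2sh2 gave 0.71 to 0.825 and 0.87 to 1.08.

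Some calls at day +2 depended on a library. LRRC32, a membrane protein that holds latent TGF-β at the cell surface, was counted 61 to 137 times per control library, 38 to 60 times in MMP2sh1 and 33 to 77 times in MMP2sh2, and its lower level (−1.14 ± 0.31 and −1.06 ± 0.31, adjusted p = 0.011 and 0.027, edgeR) was called in 3 and in 2 of the 6 fits with a library left out, and not by DESeq2 in MMP2sh2. The calls in MMP2sh1 were lost without control replicate 1 or 3 or MMP2sh1 replicate 3 (−1.04 to −0.92), and those in MMP2sh2 without control replicate 1 or 3 or MMP2sh2 replicate 1 or 2 (−0.99 to −0.81). In MMP2sh2, LTBP3 (−0.20 ± 0.06, adjusted p = 0.044, edgeR), the co-receptor ENG (−0.33 ± 0.10, adjusted p = 0.0496, edgeR) and the corepressor SKIL (−0.22 ± 0.06, adjusted p = 0.023, edgeR) were lower. LTBP3 lost its call without control replicate 2 or 3 or MMP2sh2 replicate 1 or 3 (−0.22 to −0.10), ENG without control replicate 3 or any MMP2sh2 replicate (−0.38 to −0.17), and SKIL without any control replicate or MMP2sh2 replicate 1 or 2 (−0.24 to −0.14). DESeq2 called neither LTBP3 nor ENG, the fit of all 27 libraries called neither LTBP3 nor SKIL, and ENG was not called with median-of-ratios scaling. The fit with the replicate block called neither LTBP3 nor ENG. On day −2 both were higher in MMP2sh2, LTBP3 at 0.33 ± 0.07 (adjusted p = 0.0029, edgeR) and ENG at 0.47 ± 0.09 (adjusted p = 0.0013, edgeR). In MMP2sh1, ENG was higher on day −2 (0.73 ± 0.09, adjusted p = 5.1e-06, edgeR). LTBP3 was lower in MMP2sh1 on all 3 days, at −0.39 ± 0.10 (adjusted p = 0.011), −0.31 ± 0.05 (adjusted p = 1.9e-05) and −0.21 ± 0.06 (adjusted p = 0.0100, edgeR). The call of day −2 was lost by DESeq2 and without control replicate 2 or 3 (−0.38 to −0.33), and that of day +2 in the fit of all 27 libraries and without control replicate 3 (−0.14). CDKN2B, with 22 to 26 counts per control library, had 0 to 4 in MMP2sh1 and 0 to 8 in MMP2sh2. It was called lower by edgeR in both lines and by DESeq2 in neither, and in MMP2sh2 not in the fit of all 27 libraries and not without control replicate 1 or MMP2sh2 replicate 1 or 3.

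At day −2, latency and activation had 2 genes higher and 4 lower of 17 in MMP2sh1 and 4 and 2 of 17 in MMP2sh2, SMAD signalling 2 and 0 of 20, and 3 and 3 of 19, and the targets 2 and 5 of 22, and 6 and 1 of 22. The shares of all genes were 11.6% in MMP2sh1 (5.42% higher, 6.14% lower) and 11% in MMP2sh2 (4.71% higher, 6.33% lower). At day 0 these counts were 4 and 5 of 19, and 1 and 5 of 18, then 5 and 1 of 20, and 1 and 0 of 20, and last 3 and 9 of 23, and 4 and 5 of 23. All genes then gave 16.8% in MMP2sh1 (8.26% higher, 8.58% lower) and 12.9% in MMP2sh2 (7.07% higher, 5.81% lower).

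Genes whose group means followed each ligand most closely were found among 15126 genes with a mean of at least 1 CPM, over the 9 group means of log2 CPM. TGFB1 was followed by MYADM (Pearson's r = 0.993) and ZNF697 (0.990), TGFB2 by VDAC3 (0.995) and KPNA3 (0.993), and TGFB3 by BRIP1 (0.955) and RHOT1 (0.951). The 9 means share their libraries and their scaling, and the highest of so many correlations is a description.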

How the data were processed

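Poly(A) RNA of 27 libraries was sequenced (3 lines, 3 days and 3 libraries per group, which the study calls independent biological replicates). Before deposit the authors used Trim Galore 0.6.0 for trimming, STAR 2.7.3a for alignment to hg19, a filter on alignment quality, and HTSeq 2.0.0 for counting over exons, in union mode and without strand. The authors deposited raw counts, 1 value for each gene symbol and library. The HTSeq lines that name no gene (16.8% to 19.1% of the total) were left out, and reads on exons that counted genes share are in no count.

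Each comparison of 3 libraries with 3, and each interaction of 12 libraries, was fitted on its own libraries over all genes with edgeR 4.0.16 in R 4.3.3 (TMM, filterByExpr with a minimum count of 10 and total of 15, quasi-likelihood test, Benjamini-Hochberg adjustment). The standard error is the log2 fold change divided by the square root of F. The fits were tested on simulated counts in which 200 genes changed 2-fold. For MMP2sh1 against control at day +2, edgeR recovered 72% of them and DESeq2 71%. For the interaction of MMP2sh1 and day, edgeR recovered 60%. False calls numbered 5 to 8 genes, and smaller changes were not simulated. Alternatives were median-of-ratios scaling, no filter, at least 10 counts in every library, DESeq2 1.42.0, all 27 libraries in one fit, the replicate number as a block, and each library left out. The deviations of same-numbered libraries from their group means had correlations of only −0.098 to 0.19, so the numbers were not taken as pairs.

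The 10 genes, the lists and the tests were chosen with earlier results of these data known. All 10 were named in each comparison, with MMP2, the 4 called genes of largest change in each pathway list in 3 comparisons, and the 2 closest patterns per ligand. ID1, ID3, SMAD6, ITGB8, SMAD3, LTBP3, ENG, ITGB3, SMURF2, COL3A1, FBN2, TGIF1 and MFAP5 in other comparisons were added after their values were seen. Positions and lengths are from GENCODE v44lift37 on GRCh37. The 150-base windows of all gene starts are from RefSeq, the 2000-base windows from GENCODE.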

Additional observations from a re-analysis of the deposited data

Results flagged for a closer look

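The change from day −2 to day +2 differed between an shRNA line and the control, by the interaction test of edgeR, in 5 cases. In MMP2sh1 the difference of log2 fold changes was 0.29 for TGFBI, 0.51 for LTBP1 and 0.39 for LTBP2, and in MMP2sh2 it was 0.80 for TGFBI and −0.37 for SMAD7. LTBP1 and LTBP2 in MMP2sh1 and TGFBI in MMP2sh2 were called in all 12 fits with a library left out, TGFBI in MMP2sh1 in 3 of 12 (without control replicate 3 of day +2, MMP2sh1 replicate 1 of day −2 or MMP2sh1 replicate 2 of day +2), and SMAD7 in MMP2sh2 in 0 of 12, at −0.40 to −0.32. Groups of 3 libraries are too small for a test of outlying libraries.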

How the results depend on the processing

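Among 160 member values on the log2 scale, 81 were called, and no called value changed sign or moved by over 1.5 times in the 6 alternative fits. Called values kept their call in 475 of 486 refits, and 9 of 474 refits called a value that was not called before. Median-of-ratios scaling moved the median of all genes by at most 0.018 on the log2 scale. The number of genes called stayed within 1.5 times in 91 of 96 refits. For MMP2sh1 against MMP2sh2 at day −2 it went from 1 to 2 without a filter on low counts, to 3 with all 27 libraries in one fit and to 2 with the replicate block. For the interaction of MMP2sh2 and day it went from 2 to 1 without the filter and with the replicate block. The block also ended the calls of TGFBR2 in MMP2sh1 against control at day +2 (0.19, adjusted p = 0.079, edgeR), of TGFB3 between the lines at day 0 (0.31, adjusted p = 0.054, edgeR) and of the SMAD7 interaction in MMP2sh2 (−0.37, adjusted p = 0.060, edgeR), and, among the pathway genes named, of LTBP3, ENG and SMURF2 in MMP2sh2 against control at day +2. No sign of pairing by number was seen, since in 0 of 14 comparisons did every pair correlate above 0.1 or every library correlate best with its own number. With 3 libraries per group, this check cannot exclude pairing.

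With 1 library left out, 443 of 516 refits kept a call and none reversed it, and fewer libraries lower the power. The number called in the control then ranged from 8 to 8 (day +2 against −2), 8 to 10 (0 against −2) and 6 to 7 (+2 against 0), and between days −2 and +2 from 8 to 8 in MMP2sh1 and 9 to 9 in MMP2sh2. Against the control at days −2, 0 and +2 it was 2 to 5, 3 to 5 and 3 to 6 in MMP2sh1 and 2 to 3, 5 to 5 and 2 to 3 in MMP2sh2. Between the lines it was 1 to 2, 4 to 4 and 2 to 3, and for the interactions 2 to 5 in MMP2sh1 and 1 to 1 in MMP2sh2. Counts in the pathway lists, refitted in the same way after the data were seen, stayed within 1.5 times in 278 of 288 alternative fits and 295 of 324 with a library left out. Over all genes, the count of calls moved by over 1.5 times only when a library was left out: MMP2sh1 against control at day −2 from 2184 to 1321 (control replicate 1), MMP2sh2 against control from 2080 to as few as 728 at day −2 (any control replicate or MMP2sh2 replicate 3), from 2456 to 1509 at day 0 (MMP2sh2 replicate 2) and from 1222 to as few as 679 at day +2 (control replicate 2 or 3 or MMP2sh2 replicate 1). Between the lines it went from 2009 to as few as 1208 at day −2 (MMP2sh1 replicate 1 or 2 or MMP2sh2 replicate 2) and from 1527 to as few as 885 at day +2 (MMP2sh1 replicate 2 or MMP2sh2 replicate 1 or 2), and for the interactions from 1520 to as few as 934 in MMP2sh1 (control replicate 2 or 3 of day +2) and from 1029 to 541 in MMP2sh2 (control replicate 3 of day +2).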
